A study of Xenopus tropicalis with 18 samples.

Results

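The genes znrf3, lgr4 and tcf7l2, which act in WNT and R-spondin signalling, were followed through 18 libraries of thyroid hormone receptor (TR) binding in tadpole intestine. The table of counted binding regions holds 9867 regions, and the 8 described here were chosen because they overlap one of the 3 genes or lie within 10 kb of it. The genes themselves were chosen by their T3 differences in earlier results of these libraries, so those differences are given below as a description with no test. Binding was measured by chromatin immunoprecipitation with a TR antibody and sequencing in whole intestine from stage 54 tadpoles of Xenopus tropicalis. They were wild type, TRα knockout (TRαKO in the labels, TRαLKO in the series description) or TRβ knockout (TRβKO). Each genotype was left untreated or given 10 nM of the thyroid hormone T3 for 18 h, which gives 6 groups of 3 libraries described as biological replicates. Neither the knockout alleles nor any pooling of intestines is given in the labels, and input or mock libraries were not used here.

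WNT ligands bind Frizzled and LRP receptors at the cell surface and keep β-catenin in the cell, which then enters the nucleus and joins TCF proteins on DNA. ZNRF3 is a ubiquitin ligase that clears Frizzled from the surface, and R-spondins bound to LGR4 remove ZNRF3 and so raise the response to WNT. In the mammalian gut this pathway maintains the epithelial stem cells, and in the frog T3 drives the remodelling of the larval intestine into the adult organ.

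Kept tags numbered 12.4 to 17.1 M in untreated wild type and 2.29 to 9.28 M in the other 5 groups. The untreated wild-type libraries stood apart: redundant tags made up 2.20% to 2.97% of all tags there and 7.57% to 22.4% elsewhere, the fragment length estimated by the peak caller was 255 to 283 bases against 295 to 298, and 8466 to 17717 peaks were called against 666 to 6565. Every comparison with untreated wild type, its T3 difference included, rests on these libraries and cannot be had without them, and their part in those results was not tested. The comparisons between the knockouts do not contrast them, although all 18 libraries enter the estimate of spread that every comparison shares. Immunoprecipitated DNA gives no check of the tissue by its marker transcripts or of the deletions by the targeted genes. In whole tissue, fewer cells with bound receptor and less binding per cell cannot be told apart.

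Of the 3 regions at znrf3, region A (chr1:166191911-166192396) and region B (chr1:166205516-166205866) lie inside the gene, and region C (chr1:166262793-166263176) lies just outside it, within 10 kb. Positions are as the deposited table gives them, whose genome build is not given in the sources used here, and genes were placed on them by RefSeq annotation of UCB_Xtro_10.0. Signal is given as reads in the region per 1 M kept tags (CPM). At region A it was 0.731, 0.876 and 0.567 CPM in the untreated wild-type libraries, from 10, 15 and 7 reads. With T3 it was 30.9, 27.7 and 18.8 CPM, from 77, 70 and 43 reads. All wild-type T3 libraries lay far above all untreated ones.

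In TRαKO, znrf3 region A gave 2.06, 4.31 and 4.67 CPM untreated and 11.0, 8.18 and 7.97 CPM with T3. The T3 libraries of TRαKO again lay above the untreated ones, but below every T3 library of the other genotypes. In TRβKO the region gave 2.56, 2.07 and 1.92 CPM untreated and 22.5, 22.6 and 23.6 CPM with T3. The T3 libraries of TRβKO fell inside the range of those of wild type. From high to low, the group means were 25.8 ± 6.26 CPM (SD, n = 3) in wild type with T3, 22.9 ± 0.604 in TRβKO with T3, 9.04 ± 1.68 in TRαKO with T3, 3.68 ± 1.42 in untreated TRαKO, 2.18 ± 0.336 in untreated TRβKO and 0.725 ± 0.155 in untreated wild type. In that order the ranges of wild type and TRβKO with T3 overlapped, as did those of untreated TRαKO and TRβKO, and all other neighbours were separate. How often groups of different genotypes are separate over all regions was not counted, here or at the regions below.

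The T3 difference at znrf3 region A was 5.10 ± 0.29 (log2, SE) in wild type, 3.38 ± 0.28 in TRβKO and 1.30 ± 0.25 in TRαKO. Under TMM scaling and in DESeq2 the TRαKO value was 0.84 and 0.76. With the 9342 tested regions ordered from the largest rise to the largest fall, the T3 difference ranked 10 in wild type, 170 in TRβKO and 1113 in TRαKO. Peaks called in single libraries covered region A in all 9 T3 libraries and in 2 untreated TRαKO libraries, 11 of 18 in all. Their summits lay within 89 bases of each other. By the authors' peak lists, the fold enrichment over the local background was 9.97 to 13.5 in wild type with T3, 10.2 to 11.3 in TRβKO with T3, 7.49 to 10.9 in TRαKO with T3 and 5.49 to 5.87 in the 2 untreated TRαKO libraries. Per the file headers these peaks were called without a control and with an effective genome size of 2700000000 bases, larger than the Xenopus tropicalis genome, and what that does to the enrichment was not tested.

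Regions B and C of znrf3 had little signal. Region B averaged 1.56 ± 0.112 CPM in untreated wild type and 1.70 ± 1.75 with T3, where 1 library had 0 reads. It averaged 1.18 ± 0.574 in untreated TRαKO and 2.72 ± 0.621 in TRαKO with T3, and 2.50 ± 0.996 and 1.66 ± 1.74 in TRβKO. The T3 libraries were separate from the untreated ones in TRαKO and overlapped them in wild type and TRβKO. Region C, the member closest to the 10 kb limit from inside, averaged 1.65 ± 0.267 and 1.13 ± 0.939 CPM in wild type, 0.698 ± 0.215 and 2.29 ± 0.619 in TRαKO, and 2.21 ± 1.08 and 1.81 ± 0.333 in TRβKO. Here too the T3 libraries stood above the untreated ones in TRαKO and overlapped them elsewhere. Each of the regions B and C carried a peak in 2 libraries, 1 of TRαKO with T3 and 1 of untreated TRβKO. They may have been counted only through these groups, where their means were highest, so nothing is read from the separation in TRαKO.

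**Figure D1:**
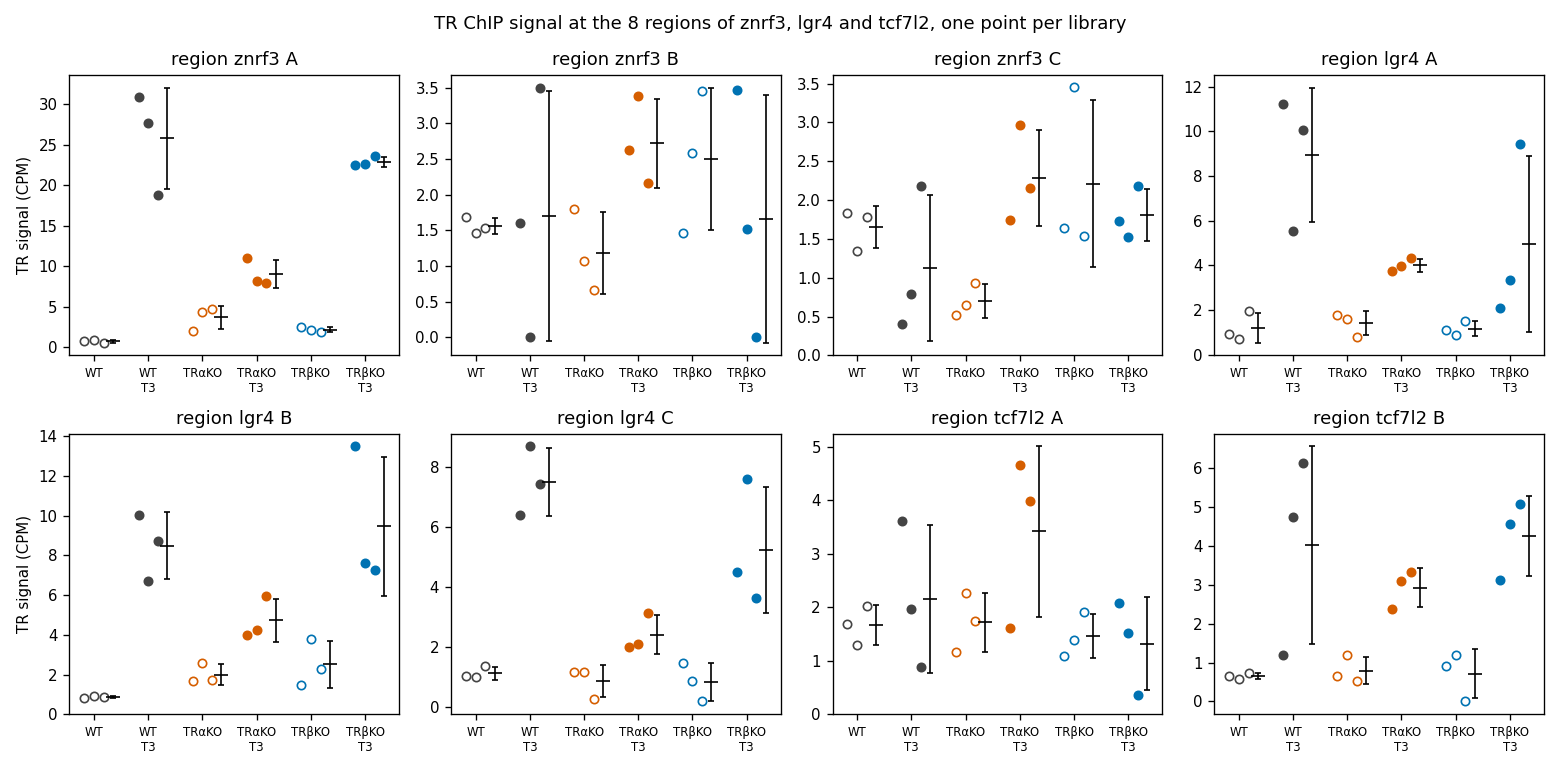
TR signal in CPM (y axis) at each of the 8 regions in the 6 groups (x axis), with 1 point per library, open for untreated and filled for T3, and the bar at the right of each group giving mean ± SD. At znrf3 A the T3 libraries of wild type (18.8 to 30.9 CPM) and TRβKO (22.5 to 23.6 CPM) lie above those of TRαKO (7.97 to 11.0 CPM), while znrf3 B, znrf3 C and tcf7l2 A stay under 5 CPM in every library.

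The 3 regions of lgr4, the R-spondin receptor gene, all lie inside the gene. Region A (chr4:21091727-21092148) and region B (chr4:21092281-21092855) are 132 bases apart, so reads of 1 binding site could reach both, and region C (chr4:21104614-21105059) lies 11758 bases farther on. At region A the untreated wild-type libraries gave 0.951, 0.701 and 1.94 CPM and the T3 libraries 11.2, 5.53 and 10.1 CPM. In TRαKO they gave 1.80, 1.62 and 0.801 CPM untreated and 3.74, 3.95 and 4.31 CPM with T3. In TRβKO they gave 1.10, 0.863 and 1.53 CPM untreated and 2.08, 3.35 and 9.43 CPM with T3, replicate 3 standing far above the others. In every genotype the T3 libraries lay above the untreated ones at region A.

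At lgr4 region B the untreated wild-type libraries gave 0.804, 0.935 and 0.890 CPM and the T3 libraries 10.0, 6.72 and 8.75 CPM. TRαKO gave 1.67, 2.58 and 1.74 CPM untreated and 3.99, 4.23 and 5.97 CPM with T3. TRβKO gave 1.46, 3.80 and 2.30 CPM untreated and 13.5, 7.62 and 7.26 CPM with T3. The groups with and without T3 were separate in each genotype, and the untreated libraries of both knockouts lay above all untreated wild-type libraries. The share of all regions where untreated knockout libraries stand so was not counted. With kept tags as library size, untreated TRαKO against wild type was not called there (adjusted p = 0.0928, edgeR).

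At lgr4 region C, signal rested on 1 to 25 reads per library. Wild type gave 1.02, 0.993 and 1.38 CPM untreated and 6.42, 8.70 and 7.44 CPM with T3. TRαKO gave 1.16, 1.18 and 0.267 CPM untreated and 1.995, 2.12 and 3.15 CPM with T3. TRβKO gave 1.46, 0.863 and 0.192 CPM untreated and 4.50, 7.62 and 3.63 CPM with T3. The T3 libraries were above the untreated ones in each genotype, and those of TRαKO were below all T3 libraries of wild type and TRβKO. The share of all regions with this order of the genotypes was not counted.

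The T3 differences at lgr4 regions A, B and C were 2.92 ± 0.43, 3.25 ± 0.40 and 2.73 ± 0.45 (log2, SE) in wild type, 1.48 ± 0.43, 1.21 ± 0.36 and 1.41 ± 0.50 in TRαKO, and 2.06 ± 0.51, 1.89 ± 0.38 and 2.62 ± 0.54 in TRβKO. At each of the 3 regions the TRαKO value was the lowest of the genotypes. Under TMM scaling and in DESeq2 the TRαKO values were lower, at 1.02 and 0.94 for region A, 0.74 and 0.66 for region B and 0.95 and 0.88 for region C. Wild-type values fell too, to 2.92 for region B in DESeq2, and to 2.45 (TMM) and 2.40 (DESeq2) for region C. Summed over the gene, signal was 21.0 to 27.7 CPM in wild type with T3, 18.6 to 20.3 in TRβKO with T3 and 9.73 to 13.4 in TRαKO with T3, against 2.63 to 5.52 in the 9 untreated libraries. By sum, wild type and TRβKO with T3 were barely separate, and at each single region of lgr4 their T3 libraries overlapped. How often such sums are separate at other genes was not counted. Peaks were called at region A in 5 T3 libraries, at region B in 3 T3 libraries and at region C in 2 libraries of wild type with T3. No untreated library had a peak at any of the 3.

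The nuclear factor gene tcf7l2 has 2 regions, both inside it, 62268 bases apart. At region B (chr7:3226933-3227387) wild type gave 0.658, 0.584 and 0.728 CPM untreated and 1.20, 4.74 and 6.12 CPM with T3, replicate 1 having 3 reads. TRαKO gave 0.643, 1.18 and 0.534 CPM untreated and 2.37, 3.10 and 3.32 CPM with T3. TRβKO gave 0.914, 1.21 and 0 CPM untreated and 3.12, 4.57 and 5.08 CPM with T3. All T3 libraries stood above the untreated ones of their genotype, and the T3 groups overlapped each other. The T3 difference was 2.58 ± 0.57 (log2, SE) in wild type, 2.53 ± 0.61 in TRβKO and 1.83 ± 0.54 in TRαKO. Under TMM scaling and in DESeq2 the TRαKO value was 1.36 and 1.30. A peak was called in 1 library of TRαKO with T3 and 1 of TRβKO with T3.

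Region A of tcf7l2 (chr7:3164152-3164664) averaged 1.66 ± 0.369 CPM in untreated wild type and 2.15 ± 1.38 with T3, 1.72 ± 0.552 and 3.42 ± 1.59 in TRαKO, and 1.46 ± 0.416 and 1.32 ± 0.875 in TRβKO. The libraries with and without T3 overlapped in all 3 genotypes. Peaks were called there in 2 untreated wild-type libraries and 2 libraries of TRαKO with T3. Beyond the 10 kb limit, but within 50 kb of tcf7l2, the nearest region (chr7:3333635-3334164) averaged 2.69 ± 0.681 CPM in untreated wild type and 1.496 ± 0.800 with T3, 0.830 ± 0.322 and 1.83 ± 0.615 in TRαKO, and 1.02 ± 0.604 and 0.577 ± 0.9998 in TRβKO.

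Counted over the 8 regions, all T3 libraries lay above all untreated ones at 5 regions in wild type, where 14.0% of all 9867 regions did so, at 7 in TRαKO (25.5% of all regions) and at 5 in TRβKO (11.8%). In wild type and in TRβKO the 5 were znrf3 A, the 3 regions of lgr4 and tcf7l2 B. The median T3 difference of the 8 was 2.65 (log2) in wild type, 1.98 in TRβKO and 1.35 in TRαKO, beside medians of 0.02, -0.16 and 0.46 over all regions tested. Since the genes were chosen for these differences, nothing is read from the counts. TMM scaling, which scales libraries by their reads in the counted regions, moved the median of all regions to -0.26 in wild type, -0.21 in TRβKO and -0.02 in TRαKO. Only the median of TRαKO thus came nearer to level.

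**Figure D2:**
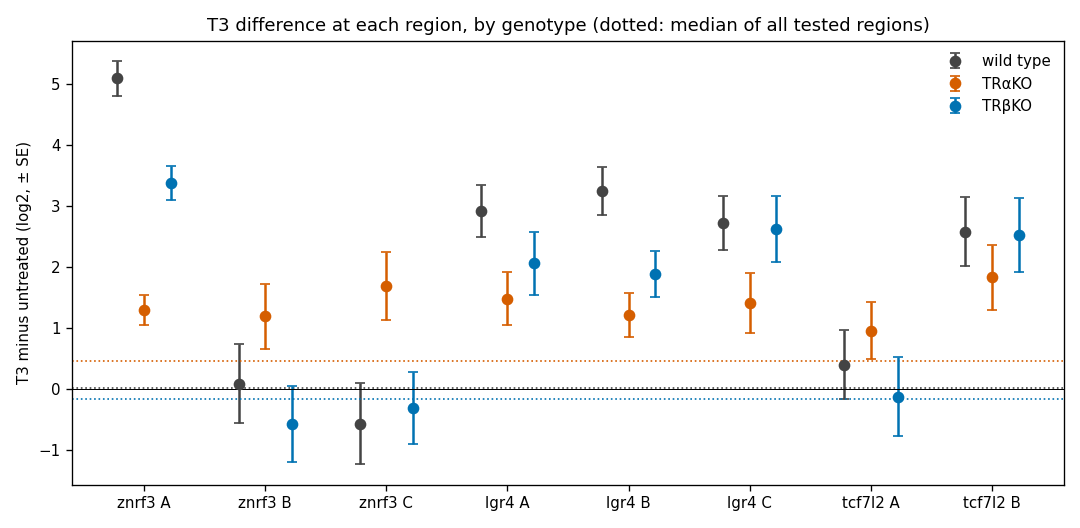
Fitted T3 minus untreated difference (y axis, log2, ± SE) at each region (x axis) in wild type, TRαKO and TRβKO, with dotted lines at the median of all tested regions. The znrf3 A values spread from 1.30 in TRαKO to 5.10 in wild type, whereas those of tcf7l2 B run from 1.83 to 2.58.

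**Figure D3:**
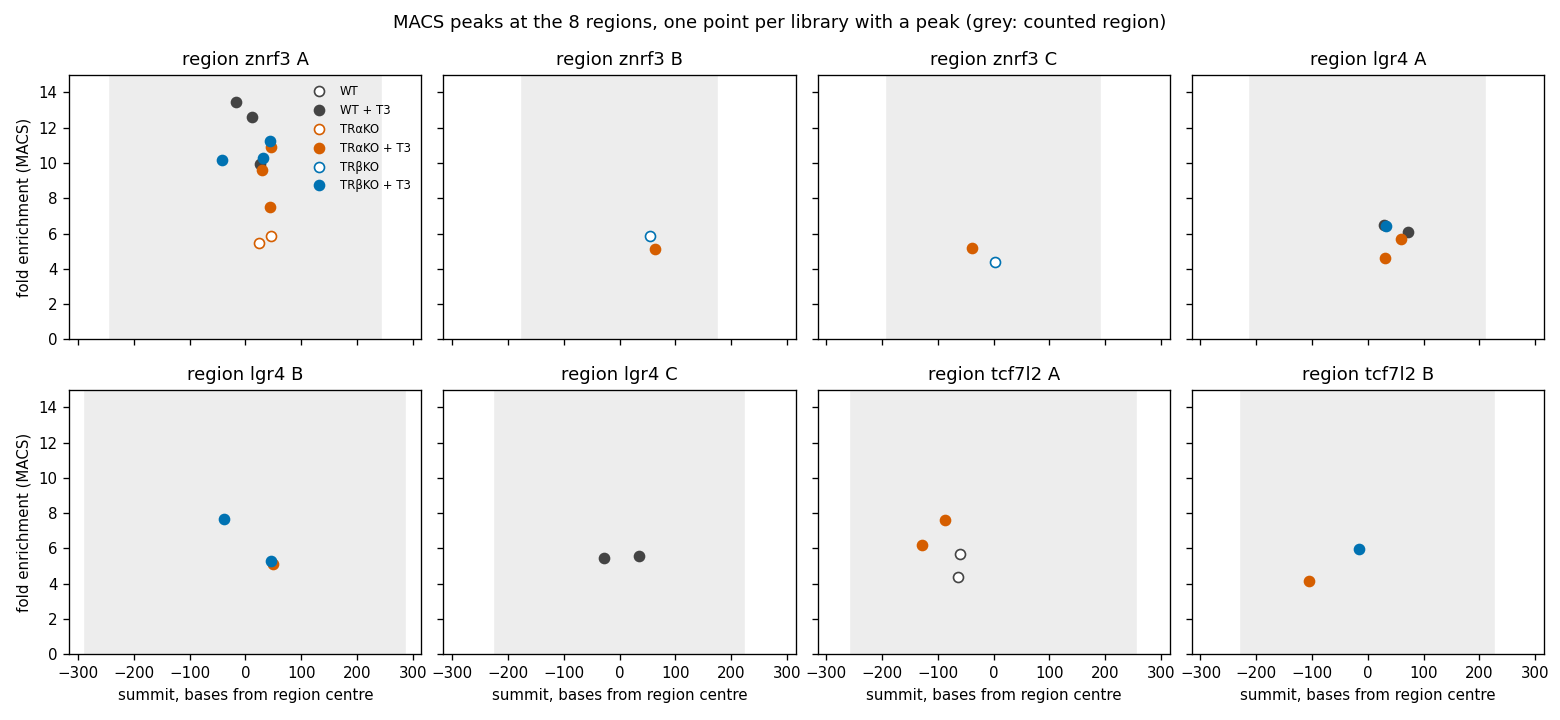
Position of each library's peak summit in bases from the centre of the counted region (x axis) against the fold enrichment in the authors' peak lists (y axis), 1 point per library with a peak, the grey band marking the region. At znrf3 A the 11 summits lie within 89 bases, and the 2 untreated TRαKO libraries have the lowest enrichment, 5.49 and 5.87.

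The genotypes were then compared directly, with and without T3, to ask how TR signal differs where a receptor is missing. These differences were not what the genes were chosen by. They share libraries with the T3 differences that were, so the tests are not independent of the choice. A choice by large T3 differences in wild type favours low untreated and high T3 signal there. A knockout above wild type without T3, or below it with T3, lies in the direction so favoured. With T3, TRαKO was lower than wild type at 2 of the 8 regions, while 7.30% of all regions were called lower. The difference was -1.51 ± 0.23 (log2, SE; adjusted p = 6.68e-07, edgeR quasi-likelihood test with Benjamini-Hochberg adjustment) at znrf3 A and -1.64 ± 0.44 (adjusted p = 0.00730) at lgr4 C. The same edgeR test gave lgr4 A an adjusted p of 0.0585 at -1.16 ± 0.40 and lgr4 B one of 0.142 at -0.85 ± 0.35. The wild-type T3 libraries had 2.29 to 2.53 M kept tags, 21.4% to 22.4% redundant tags and 2.83 to 2.96 reads in the counted regions per 100 kept tags. Those of TRαKO with T3 had 6.03 to 8.02 M, 7.57% to 10.9% and 2.21 to 2.41, and the part of these properties in the comparison was not tested. Without replicate 1 of TRαKO with T3, the adjusted p of lgr4 C became 0.0506, within a range of 0.00134 to 0.0506 over all alternatives. Peaks at lgr4 C were called in 2 libraries of wild type with T3 and in no other group. It may thus have been counted only through the group where it is high. Like that of znrf3 A, its p-value gives no independent support.

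With T3, none of the 8 regions was called between TRβKO and wild type by edgeR or DESeq2, beside 4.23% of all regions, and 1 (lgr4 A) had an unadjusted p under 0.05 in edgeR. DESeq2 gave 4 of the 8 no adjusted p. At znrf3 A the difference was -0.18 (log2), with a 95% interval from -0.63 to 0.28. At lgr4 B it was 0.15 (interval -0.56 to 0.86), and at tcf7l2 B 0.09 (-0.98 to 1.16). At lgr4 A and C it was -0.87 (-1.73 to -0.01) and -0.50 (-1.38 to 0.38). The intervals at lgr4 and tcf7l2 were wider than that at znrf3 A.

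Between the knockouts with T3, TRβKO was higher than TRαKO at 2 of the 8 regions, where 6.25% of all regions were called higher. The difference was 1.33 ± 0.23 (log2, SE; adjusted p = 9.60e-06, edgeR) at znrf3 A and 1.01 ± 0.34 (adjusted p = 0.0410) at lgr4 B. The call at znrf3 A held under every alternative run, with adjusted p between 3.43e-08 and 6.30e-04. That at lgr4 B was lost without replicate 1 (0.146) or 2 (0.134) of TRαKO with T3 or replicate 1 of TRβKO with T3 (0.341), when scaled to all tags (0.0694), with the replicate block (0.0537) and when every library was thinned to the kept tags of the shallowest (0.0525). At lgr4 C the difference was 1.14 ± 0.45 (adjusted p = 0.0905), and at lgr4 A 0.29 ± 0.43. At tcf7l2 A and B it was -1.32 ± 0.58 (adjusted p = 0.137) and 0.54 ± 0.50. The libraries of TRβKO with T3 had 2.76 to 3.28 M kept tags and 15.7% to 16.2% redundant tags. Those of TRαKO with T3 had 6.03 to 8.02 M and 7.57% to 10.9%. Beyond the alternatives given above, the part of these properties in the comparison was not tested. A choice by large T3 differences in TRβKO favours high T3 signal there, which is the direction of both calls. Peaks at lgr4 B were called only in libraries with T3, 2 of TRβKO and 1 of TRαKO. The p-values of both calls thus give no independent support.

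Without hormone, TRαKO was higher than wild type at 1 of the 8 regions, znrf3 A, by 2.30 ± 0.32 (log2, SE; adjusted p = 1.49e-07, edgeR), where 1.65% of all regions were called higher. TRβKO was higher than wild type at 2, where 2.07% were called higher. These were znrf3 A by 1.54 ± 0.37 (adjusted p = 0.00678, edgeR) and lgr4 B by 1.51 ± 0.42 (adjusted p = 0.0225). The first was lost without replicate 1 of untreated TRβKO (0.0562) and by thinning (0.272). The second was lost without replicate 2 of untreated TRβKO (0.253), without replicate 1, 2 or 3 of untreated wild type (0.0810, 0.0680 and 0.0596) and by thinning (0.172). All 3 calls rest on the untreated wild-type libraries that stand apart. They also lie in the direction that a choice by T3 differences in wild type favours, so their p-values give no independent support. Between the untreated knockouts, none of the 8 regions was called by edgeR or DESeq2, beside 0.621% of all regions, and 2 had an unadjusted p under 0.05 in edgeR. DESeq2 again gave 4 of the 8 no adjusted p. The 2 were znrf3 A at -0.75 ± 0.32 and znrf3 C at 1.65 ± 0.57. Peaks at znrf3 C were called only in 1 library of untreated TRβKO and 1 of TRαKO with T3. Its value thus lies in the direction through which it may have been counted.

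**Figure D4:**
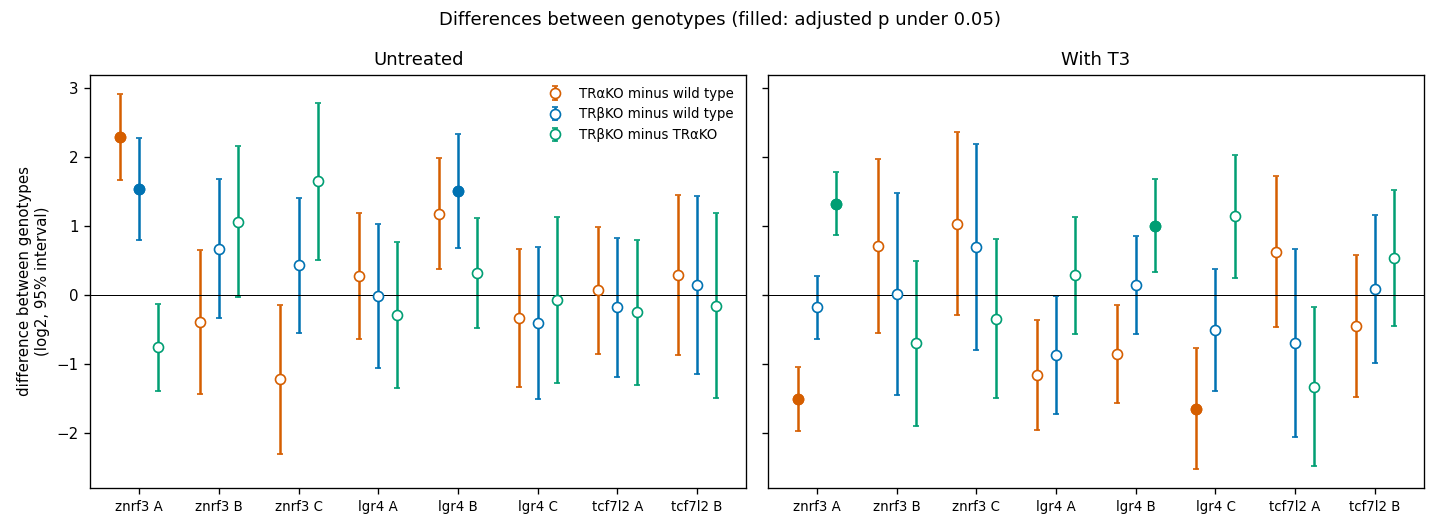
Fitted differences between genotypes (y axis, log2, with 95% intervals) at the 8 regions (x axis), untreated at the left and with T3 at the right; filled points have an adjusted p under 0.05 over all 9342 tested regions. At znrf3 A, TRαKO is higher than wild type by 2.30 without T3 and differs by -1.51 with it.

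The T3 differences of the genotypes were also set against each other, again as a description with no test, because the genes were chosen by them. At znrf3 A the T3 difference was smaller in TRαKO than in wild type by a change of -3.80 ± 0.39 (log2, SE). Its larger part lay in the untreated libraries, where TRαKO minus wild type was 2.30, against -1.51 with T3. In TRβKO the change from wild type was -1.72 ± 0.44, made up of 1.54 untreated and -0.18 with T3. At lgr4 B the change was -2.04 ± 0.54 in TRαKO, made up of 1.18 untreated and -0.85 with T3, and -1.36 ± 0.55 in TRβKO. These changes thus rest in large part on the untreated wild-type libraries that stand apart.

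Between the knockouts, the T3 difference at znrf3 A was larger in TRβKO than in TRαKO by 2.08 ± 0.39 (log2, SE), and by the same 2.08 ± 0.39 when the 4 knockout groups alone were fitted. It was made up of -0.75 untreated and 1.33 with T3. At lgr4 regions A, B and C the same change was 0.58, 0.68 and 1.21, with 95% intervals of -0.78 to 1.94, -0.37 to 1.73 and -0.30 to 2.72. At tcf7l2 B it was 0.70, with an interval of -0.98 to 2.37. At neither of the tcf7l2 regions was any of the 6 direct comparisons between genotypes called by edgeR or DESeq2, and 1 (tcf7l2 A between the knockouts with T3) had an unadjusted p under 0.05 in edgeR. In 3 of the 6 comparisons DESeq2 gave at least 1 of the 2 regions no adjusted p.

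Across the 18 libraries, log2(CPM + 0.5) at znrf3 A followed lgr4 B with Pearson r = 0.931, lgr4 C with 0.818, lgr4 A with 0.802 and tcf7l2 B with 0.790. These points share the T3 treatment and the depth of each library, and the values are descriptive. Region A of znrf3 followed its own gene's regions B and C with r = -0.225 and -0.115, and tcf7l2 A followed tcf7l2 B with r = -0.074. Among 2588 regions at other genes with at least median signal, those most like znrf3 A lay at thra (r = 0.983), the gene of TRα, and at selenoi, mical2 and sgms1 (r = 0.979 to 0.983). Those most like lgr4 B lay at gsdme, ikzf2, sgms1 and acvr1b (0.955 to 0.965), and those most like tcf7l2 B at pmm2, abca1, ubl3 and the transfer RNA gene trnav-uac (0.904 to 0.924).

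The rest of the pathway was read from a list of 122 other WNT genes, of which 29 had 53 regions, 49 of them tested. With T3, 4 of the 49 regions were called higher and 1 lower in wild type, beside 11.3% of all regions called, 3 and 0 in TRαKO (8.67%), and 4 and 1 in TRβKO (11.8%). Their median T3 differences were 0.13, 0.78 and -0.21 (log2), beside 0.02, 0.46 and -0.16 for all regions. None of the 20 tested regions at ligand genes was called between T3 and untreated within any genotype by edgeR or DESeq2. In each genotype 1 had an unadjusted p under 0.05 in edgeR. Direct comparisons of list regions with wild type, in which some ligand regions were called, are not described here. In TRαKO, DESeq2 gave 17 of the 20 no adjusted p.

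The regions called higher lay at dvl1, csnk1a1, vangl2 and bcl9. Calls in either direction made up 10.2%, 6.12% and 10.2% of the list regions in wild type, TRαKO and TRβKO. Each share was below that of all regions, so no theme is read from the genes named. At dvl1 (chr7:93086366-93086872), whose product relays the signal from Frizzled, signal was 0.983 ± 0.373 CPM (SD, n = 3) untreated and 20.8 ± 4.30 with T3 in wild type. It was 3.10 ± 0.573 and 6.57 ± 1.16 in TRαKO, and 2.35 ± 1.44 and 14.2 ± 3.64 in TRβKO. Signal there rose by 4.34 ± 0.31 (log2, SE; adjusted p = 1.95e-21, edgeR) in wild type, 2.59 ± 0.33 (2.64e-10) in TRβKO and 1.08 ± 0.29 (0.00755) in TRαKO. The order of the groups was that of znrf3 A. The TRαKO call was lost without replicate 2 of either TRαKO group (0.0753 untreated, 0.0607 with T3), under TMM scaling (0.330) and in DESeq2 (0.204).

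The other rises were at csnk1a1 (a kinase of β-catenin), vangl2 (planar cell polarity) and bcl9 (a partner of β-catenin, at 1 of its 5 regions). At csnk1a1 signal rose by 3.64 ± 0.54 in wild type and 2.63 ± 0.53 in TRβKO (adjusted p = 3.10e-08 and 4.40e-05, edgeR) and differed by 1.37 ± 0.50 (0.0786) in TRαKO. At vangl2 it rose by 2.13 ± 0.52, 2.12 ± 0.54 and 2.13 ± 0.55 in wild type, TRαKO and TRβKO (adjusted p = 9.31e-04, 0.00325 and 0.00211). The vangl2 call was lost in wild type without replicate 2 with T3 (0.0518), and in TRαKO without replicate 3 untreated (0.0560) or replicate 2 with T3 (0.0504) and under TMM scaling (0.0580). At bcl9 it rose by 2.61 ± 0.46, 1.77 ± 0.51 and 2.57 ± 0.50 (adjusted p = 2.22e-06, 0.0136 and 2.02e-05), and the TRαKO call was lost without replicate 3 untreated (0.0727) or with T3 (0.143), under TMM scaling (0.164), in DESeq2 (0.0584) and by thinning (0.678).

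The falls were at prickle2, a planar cell polarity gene (1 of its 2 regions), in wild type and at cd44, a surface glycoprotein gene, in TRβKO. At prickle2 the 3 untreated wild-type libraries held 67 reads and the 3 T3 libraries 0, which is at least 3.78-fold lower when the T3 group is set at a floor of 3 reads. In TRαKO it had 28 reads untreated and 54 with T3 (1.16 ± 0.303 and 2.60 ± 0.773 CPM). In TRβKO it had 35 and 24 reads (2.13 ± 1.02 and 2.79 ± 2.03 CPM). At cd44, TRβKO held 42 reads untreated and 5 with T3, a difference of -2.15 ± 0.70 (adjusted p = 0.0274, edgeR). It was lost without replicate 3 untreated (0.0714) or replicate 2 (0.147) or 3 (0.173) with T3, and when only those groups were fitted (0.0946).

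Between TRβKO and TRαKO with T3, 3 of the 49 other regions were higher and 1 lower, beside 10.4% of all regions called. These were dvl1 (1.13 ± 0.28, adjusted p = 0.00268, edgeR), csnk1a1 (1.34 ± 0.45, 0.0414), bcl9 (1.46 ± 0.43, 0.0164) and, lower, nkd1 (-1.83 ± 0.59, 0.0289), an inhibitor that binds Dishevelled. Each was lost without some single library: dvl1 without replicate 2 of TRβKO (0.0676), csnk1a1 without replicates 1 or 3 of TRαKO (0.125, 0.145) or 2 or 3 of TRβKO (0.197, 0.0892), and also when scaled to all tags (0.0632). For bcl9 these were replicates 1 or 2 of TRαKO (0.0547, 0.118) or 2 or 3 of TRβKO (0.0716, 0.116), and for nkd1 replicates 2 or 3 of TRαKO (0.0968, 0.0710) or 1 or 3 of TRβKO (0.121, 0.0785). The nkd1 call was also lost under TMM scaling (0.0932) and in DESeq2 (0.0915). All of these calls contrast the knockout libraries with T3, which differ in kept and redundant tags as given above. Without T3, edgeR and DESeq2 called none of the 49 between the knockouts, 10 had an unadjusted p under 0.05 in edgeR, and DESeq2 gave 33 no adjusted p.

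**Figure D5:**
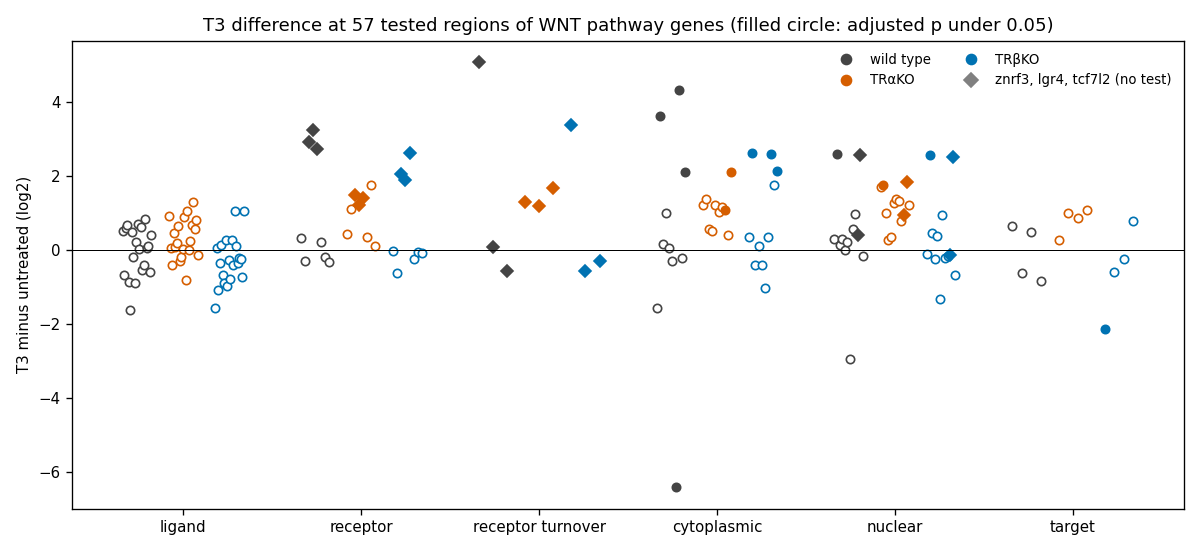
Fitted T3 minus untreated difference (y axis, log2) at the 57 tested regions of WNT pathway genes by role (x axis), 1 point per region and genotype; diamonds are znrf3, lgr4 and tcf7l2, shown without a test, and filled circles are other genes with an adjusted p under 0.05. The ligand column holds no filled circle, and the lowest point is prickle2 in wild type, whose fitted value of -6.43 rests on 0 reads with T3.

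Outside the 8 counted regions, 14 peaks of single libraries lay at or within 10 kb of the 3 genes. Of these, 11 came from untreated wild type, the deepest libraries, and 10 of those 11 were at tcf7l2. None of the 14 overlapped a peak of another library, whereas each of the 8 counted regions carried peaks in 2 to 11 libraries. If regions were counted only where at least 2 libraries had a peak, this was fixed in advance, so nothing is read from it.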

How the data were processed

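TR binding was measured in 18 libraries, grouped by the genotype and treatment in the labels. Reads were aligned with Bowtie2 2.3.4.1 and counted with DiffBind, per the submitters' processing notes, and peaks were called per library by MACS 2.2.7.1 without control at a q-value limit of 0.05, per the file headers (the notes name MACS2 2.1.1.20160309). The genome build and the treatment of duplicates in counting are not given in the sources used here.

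The authors deposited raw read counts per region and peak lists with pileup height (a signal in tags), fold enrichment and −log10 q and p-values, per the file headers. Genes were placed by RefSeq positions of UCB_Xtro_10.0. Of the regions, 11.4% lay within 1000 bases of a gene end, against 7.07% to 7.68% after shifting all positions.

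The quasi-likelihood fit of edgeR 4.0.16 (robust, with limma 3.58.1, under R 4.3.3) was made on 6 group means, with tags kept by MACS as library size. Of 9867 regions, 9342 passed filterByExpr, including all 8 members. Tests of 12 contrasts were two-sided, adjusted by Benjamini-Hochberg over the 9342 regions, at a threshold of 0.05. Any p-value reflects spread between libraries, which may be technical. The fit was run on simulated data, where it missed some of the raised regions and most of the lowered ones. A region that was not called may therefore still differ. Alternatives were TMM, all tags, DESeq2 1.42.0, no filter, only the groups compared, a replicate block, leaving out each library, and thinning every library to the shallowest, which was chosen after seeing the data. Deviations of same-numbered libraries correlated by -0.005 to 0.045, so the numbers were not taken as pairs. Members, lists and tests were chosen with earlier results of these data known, and the planned interaction tests are given at the members as values only, since T3 differences chose them. Named are all member regions, WNT list genes called with T3 or between the knockouts, and the 4 regions most like each gene's strongest region.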

Additional observations from a re-analysis of the deposited data

Results flagged for a closer look

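The T3 difference of 2 other WNT genes differed between genotypes in the interaction test (edgeR, adjusted p below 0.05). Of the 49 tested list regions, 2 were called for TRαKO against wild type, 2 for TRβKO against wild type and 1 between the knockouts. Over all 9342 tested regions the same tests called 588, 167 and 326. At dvl1 the T3 difference changed by -3.26 in TRαKO and by -1.75 in TRβKO against wild type, and by 1.51 in TRβKO against TRαKO. The adjusted p of the latter pair was 0.0301 and 0.0376, and each was lost under 10 alternatives, with adjusted p up to 0.627 and 0.155. At prickle2 the fitted change was 7.58 in TRαKO and 6.78 in TRβKO against wild type, but these sizes depend on the prior count, as wild type with T3 held 0 reads. The adjusted p was 0.00116 and 0.0342, and the second call was lost under 8 alternatives, each leaving out 1 library, with adjusted p up to 0.124. At dvl1, knockout minus wild type was 1.59 untreated and -1.67 with T3 in TRαKO, and 1.21 and -0.54 in TRβKO. At prickle2 it was -0.44 untreated and 7.14 with T3 in TRαKO, and 0.43 and 7.22 in TRβKO. The prickle2 changes thus rest mostly on the wild-type T3 libraries with 0 reads. Those of dvl1 rest in large part on the untreated wild-type libraries, whose depth and share of redundant tags differ from the rest. The part of these library properties in the changes was not tested.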

How the results depend on the processing

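No called result changed direction under any alternative run. Over the 8 regions, TMM scaling and DESeq2 each gave 2 calls for untreated TRαKO against wild type in place of 1, adding lgr4 B. For TRβKO against TRαKO with T3, scaling to all tags, the replicate block and thinning gave 1 call each in place of 2, and leaving out single libraries gave 1 to 2. For untreated TRβKO against wild type thinning gave 0 in place of 2, and leaving out libraries 1 to 2. Leaving out libraries gave 1 to 3 calls for TRαKO against wild type with T3, 2 in the full data. The median T3 difference in TRαKO was 0.82 in DESeq2 and 1.35 in edgeR. Calls in the WNT list over 12 contrasts numbered 33, and 13 after thinning, which left 5 of the 8 regions tested. Peaks at the 8 regions in TRβKO numbered 9, and 5 at a −log10 q of 5 or more. Beyond thinning, TMM and DESeq2, whose scaling shifts all regions, and fewer reads or libraries, the causes were not tested. With only the groups compared, up to 3 of the 8 regions, depending on the contrast, did not pass the low-count filter. By gene body alone 7 regions were members, and within 50 kb 10. Replicate numbers were not taken as pairs, although the low correlations between same-numbered libraries cannot exclude a pairing at such low counts. With the replicate block the adjusted p of lgr4 B between the knockouts with T3 was 0.0537, and no other call of the 8 regions was lost. The planned search for a receptor motif was not run, since no genome sequence was used here. With 2.29 M tags in the shallowest library, 1 read is worth 0.437 CPM, so small differences at the weaker regions were not detectable at this depth.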
